A study of Mus musculus with 12 samples.

Results

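The CXCR2 ligand chemokine genes measured in these mouse keratinocyte cultures were Cxcl1, Cxcl2, Cxcl3, Cxcl5 and Ppbp, chosen by name, with 5 of 5 found among the 22180 genes with 1 symbol on the arrays. Each was read from its only probe set. Because Cxcl1, Cxcl2 and Cxcl3 are close paralogs, some of their signal could come from shared hybridisation, which was not tested. Keratinocytes, the main cells of the epidermis, came from mice with floxed Atg7 alleles (Atg7 f/f). The Cre-negative cells (K14::Cre -, called wt) keep Atg7, which encodes an enzyme needed to build autophagosomes. The K14::Cre + cells (called KO) carry a Cre recombinase driven by the keratin 14 promoter, which is active in basal keratinocytes. All 4 groups therefore share the floxed alleles, and the genotypes differ in Cre as well as in Atg7. Cultures in KGM-2 medium were sham treated (ctrl) or given 20 µM paraquat (PQ), a herbicide that cycles electrons to oxygen and forms superoxide, and were harvested for RNA 48 h later. Each group had 3 arrays, described by the submitters as biological triplicates. The labels tie no array to an animal and do not say whether animals were pooled, so p-values measure only the spread between these arrays.

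CXCR2 is a receptor found mainly on neutrophils. Its ligands are small secreted chemokines that share a glutamate-leucine-arginine motif near their start and draw neutrophils into tissue. Keratinocytes make several of them when interleukin-1, interleukin-17 or tumour necrosis factor activates NF-κB, and their mRNAs are kept short-lived by decay factors that bind AU-rich elements. Cxcl1, Cxcl2 and Cxcl3 encode the closely related growth-regulated chemokines, Cxcl5 encodes the epithelial ligand also called LIX, and Ppbp encodes the precursor of CXCL7, best known from platelets.

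The sequences just upstream of 4 members are shown, and that of Cxcl5 was not analysed here. They come from RefSeq (GRCm38.p6), run 5′ to 3′ on the plus strand of chromosome 5, and cover the 150 bases before each transcription start. Capitals mark GGGAATTTCCC, the longest run of letters that the windows of Cxcl1, Cxcl2 and Cxcl3 share and one that holds a κB motif, together with TATAAAA and ATAAAAGG, on either strand.
Cxcl1: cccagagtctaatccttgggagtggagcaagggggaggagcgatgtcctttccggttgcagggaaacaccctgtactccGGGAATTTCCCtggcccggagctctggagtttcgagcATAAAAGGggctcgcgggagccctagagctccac
Cxcl2: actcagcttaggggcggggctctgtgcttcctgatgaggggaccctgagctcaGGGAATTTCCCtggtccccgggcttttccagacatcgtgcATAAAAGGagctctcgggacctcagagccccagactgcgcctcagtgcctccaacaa
Cxcl3: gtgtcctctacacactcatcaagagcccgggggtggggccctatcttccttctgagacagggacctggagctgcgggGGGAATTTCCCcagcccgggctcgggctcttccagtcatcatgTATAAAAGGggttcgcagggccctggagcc
Ppbp: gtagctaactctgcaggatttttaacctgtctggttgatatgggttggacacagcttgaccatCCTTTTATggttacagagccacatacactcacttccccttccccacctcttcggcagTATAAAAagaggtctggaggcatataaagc
The windows are chr5:90891095-90891244 for Cxcl1, chr5:90903749-90903898 for Cxcl2, chr5:90785951-90786100 for Cxcl3 and chr5:90768368-90768517 for Ppbp. Counted back from the start, the κB run began 71 bases upstream in Cxcl1, 97 in Cxcl2 and 73 in Cxcl3. GGGAATTTCCC or its reverse complement GGGAAATTCCC occurred in 14 of 32851 mouse promoter windows of 250 upstream bases (0.0426%), and the window of Ppbp was not among them. TATAAAA (reverse complement TTTTATA), held by 4.98% of windows, lay 30 bases upstream in Cxcl3 and in Ppbp. ATAAAAGG (reverse complement CCTTTTAT), held by 1.54%, began 34 bases upstream in Cxcl1, 57 in Cxcl2 and 29 in Cxcl3, where it overlaps TATAAAA, and lay on the minus strand of Ppbp. The matches describe letters and were not tested as binding sites. The run was held by 9 measured genes, and the 3 ligands that defined it are no evidence about it. Of the other 6, 1 rose in wt cells under paraquat and 0 in KO cells (limma), beside the 14.9% and 14.5% of all genes that rose.

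The deposited signals ranged from 3 to 17695 in arbitrary units, with array medians between 42 and 45. The arrays carry no measure of background here, so 45 served as a yardstick for dim signals. Atg7 lay at 293, 356 and 286 in wt sham arrays and at 105, 111 and 103 in KO sham arrays, a log2 change of -1.55 ± 0.13 (SE, limma, adjusted p = 2.8e-05). Of 11 measured keratinocyte markers, 10 had a group mean above 45 in every group, among them Krt14 and Trp63, and Krt15 lay below it. The second wt sham array and the third KO paraquat array stood apart from their groups in principal components, and the ligand results and the list counts that moved most are also given without them. Under paraquat, leaving them out moved the number of risers or fallers in a gene list by at most 2.

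**Figure D1:**
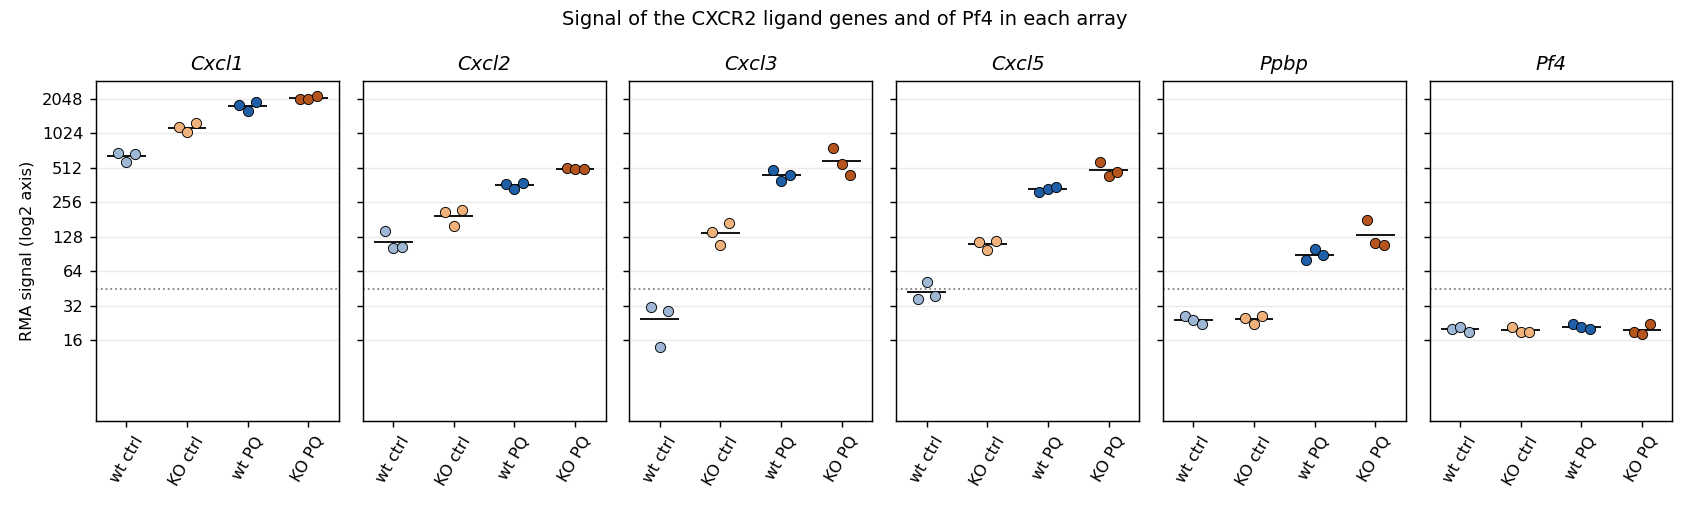
Signal (log2 axis, arbitrary units) of the 5 CXCR2 ligand genes and of Pf4, a neighbouring chemokine gene, in each of 12 arrays; bars are group means of 3 arrays and the dotted line lies at 45, the highest array median. The group means of each ligand run wt ctrl, KO ctrl, wt PQ, KO PQ from low to high, with overlap between neighbours only for Cxcl3 (wt PQ and KO PQ) and Ppbp (wt ctrl and KO ctrl), while Pf4 stays between 18 and 22.

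In wt cells, paraquat raised all 5 ligand genes. Cxcl3 rose 19.0-fold and Cxcl5 7.89-fold, while Ppbp, Cxcl2 and Cxcl1 rose between 2.74-fold and 3.72-fold. Over all genes, 29.2% passed the test and 14.9% passed it upward, with a median log2 change of 0.0088 over all genes against 1.89 over the 5 ligands. The arrays measured bulk RNA, in which more cells expressing a ligand and more RNA per cell cannot be told apart.

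Cxcl1, whose product is the keratinocyte-derived chemokine KC, read 684, 578 and 674 in wt sham arrays and 1800, 1591 and 1904 in wt paraquat arrays. Its signal was well above the array median even without paraquat, and the 2 groups did not overlap. The log2 change was 1.45 ± 0.10 (SE, limma, adjusted p = 1.57e-07). Cxcl2, which encodes the macrophage inflammatory protein form of the family, read 143, 102 and 104 in wt sham arrays and 373, 332 and 376 after paraquat. Every paraquat array lay above every sham array, and the log2 change was 1.65 ± 0.14 (limma, adjusted p = 1.18e-06).

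Cxcl3, the third of the growth-regulated chemokine genes, read 31, 14 and 29 in wt sham arrays, below the array median. After paraquat it read 490, 392 and 447. The log2 change of 4.25 ± 0.27 (limma, adjusted p = 9.57e-08) was the 13th highest of 22180 genes. Because the sham signals were dim, this value depends on how they are treated, and with 16 added to each signal it was 3.52. The second wt sham array gave the lowest Cxcl3 signal of all, and without it and the third KO paraquat array the change was 3.88.

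Cxcl5 moved from 37, 52 and 39 in wt sham arrays to 314, 336 and 349 after paraquat. Its sham signals straddled the yardstick of 45 and its paraquat signals agreed closely with each other. The log2 change was 2.98 ± 0.14 (limma, adjusted p = 6.94e-09). Ppbp moved from 26, 24 and 22 to 80, 100 and 88, with a log2 change of 1.89 ± 0.16 (limma, adjusted p = 1.3e-06). It thus went from below the array median to above it in 3 of 3 arrays. Non-overlap with higher paraquat arrays, seen for 5 of 5 ligands, was seen for 19.2% of all genes. The 5 calls also held without the arrays that stood apart.

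In KO cells the same treatment again raised all 5 ligand genes, with a median log2 change of 2.05 against 0.0079 over all genes. Here 27.1% of all genes passed, 14.5% upward. Ppbp led with a 5.37-fold rise, followed by Cxcl5 at 4.44-fold and Cxcl3 at 4.15-fold. This order depended on the dim KO sham signals of Ppbp. With 16 added to each signal the log2 changes were 2.00 for Cxcl5, 1.93 for Cxcl3 and 1.86 for Ppbp.

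Ppbp read 25, 22 and 26 in KO sham arrays and 180, 114 and 108 in KO paraquat arrays. The first paraquat array was well above the other two, and all 3 were above the sham arrays. Its log2 change was 2.43 ± 0.16 (limma, adjusted p = 3.21e-07), 56th among all genes. Cxcl5 rose from 116, 99 and 118 to 575, 433 and 475, a log2 change of 2.15 ± 0.14 (limma, adjusted p = 1.99e-07). The same first array was again the highest. Cxcl3 went from 141, 109 and 169 to 762, 551 and 441, with a log2 change of 2.05 ± 0.27 (limma, adjusted p = 7.99e-05).

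Cxcl2 rose from 213, 158 and 218 to 511, 497 and 500. The paraquat arrays lay close to each other and above every sham array, and the log2 change was 1.37 ± 0.14 (limma, adjusted p = 9.55e-06). Cxcl1 rose from 1155, 1048 and 1250 to 2036, 2030 and 2148. Its 1.80-fold rise, a log2 change of 0.85 ± 0.10 (limma, adjusted p = 2.57e-05), was the smallest of the 5 and ranked 747th among all genes. None of the 5 ligands overlapped between KO sham and KO paraquat arrays, which held upward for 20% of all genes, and the 5 calls held without the arrays that stood apart.

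**Figure D2:**
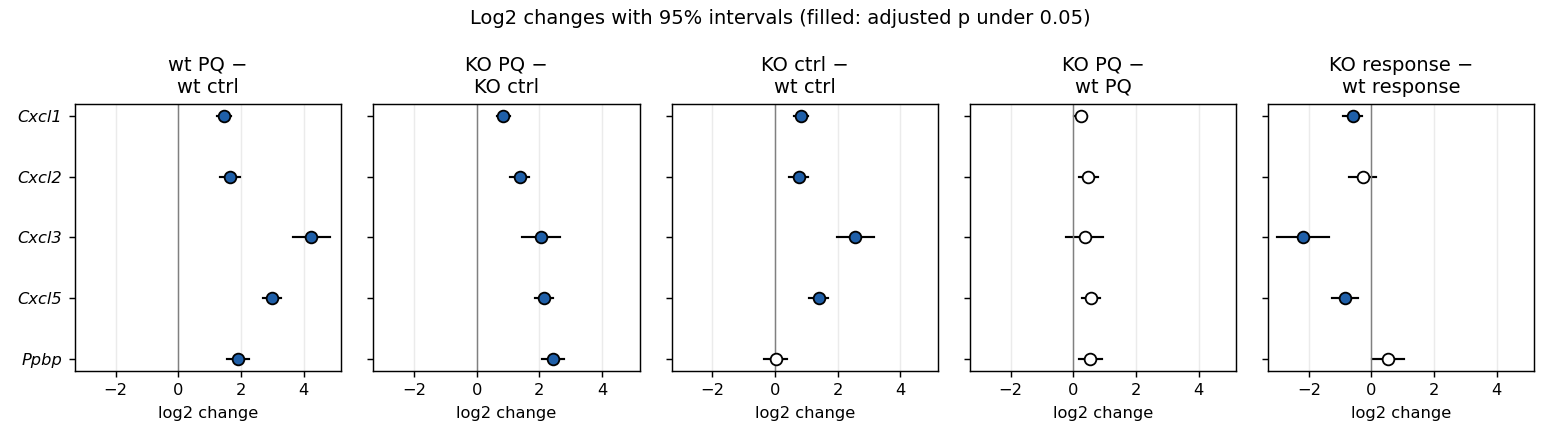
Log2 change of each ligand gene in the 5 comparisons, with 95% intervals from limma; filled points have an adjusted p under 0.05. All 5 genes are to the right of 0 for paraquat in either genotype, Ppbp sits at 0.02 for KO against wt without paraquat, and the difference of responses is called for Cxcl1, Cxcl3 and Cxcl5.

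KO cells had higher signals of 4 ligand genes already without paraquat. Cxcl1, Cxcl2, Cxcl3 and Cxcl5 were higher in KO than in wt sham arrays, and Ppbp was not called. These 4 of 5 compare with 10.2% of all genes called and 4.58% of all genes called higher, and their arrays did not overlap, as for 10.1% of all genes in the upward direction. The median log2 change was 0.84 over the ligands and -0.0083 over all genes. This comparison shares its wt sham arrays with the paraquat comparison in wt cells and its KO sham arrays with that in KO cells.

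Cxcl3 differed most, with 24.7 ± 9.29 (SD, n = 3) in wt and 140 ± 30.0 (SD, n = 3) in KO sham arrays. The log2 change of 2.56 ± 0.27 (limma, adjusted p = 0.000127) was the 4th highest of all genes, and it was 1.95 with 16 added to each signal. Cxcl5 followed, at 42.7 ± 8.14 in wt and 111 ± 10.4 in KO (SD, n = 3 each), a log2 change of 1.39 ± 0.14 (limma, adjusted p = 6.57e-05). In wt cells these 2 genes were near or below the array median, and in KO cells every array was above it.

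Cxcl1 was 1.78-fold higher in KO sham arrays, with a log2 change of 0.84 ± 0.10 (limma, adjusted p = 0.000239). Cxcl2 was 1.69-fold higher, with a log2 change of 0.76 ± 0.14 (limma, adjusted p = 0.00404). Its call was lost when the fit was limited to the 6 sham arrays (limma, adjusted p = 0.0579). Ppbp read 24.0 ± 2.00 in wt and 24.3 ± 2.08 in KO sham arrays (SD, n = 3 each), and the 95% interval of its log2 change ran from -0.33 to 0.37. Without the arrays that stood apart, the same 4 genes were called, with Cxcl3 at 2.20.

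With paraquat in both genotypes, none of the 5 ligands passed the threshold between KO and wt (limma, with 4 of 5 at an unadjusted p under 0.05). In this comparison 0.55% of all genes passed, and 11% had an unadjusted p under 0.05. All 5 values were nevertheless higher in KO, with a median log2 change of 0.48 against -0.0017 over all genes. Cxcl5 was nearest to the threshold, at 333 ± 17.7 in wt and 494 ± 72.9 in KO paraquat arrays (SD, n = 3 each), a log2 change of 0.56 with a 95% interval from 0.27 to 0.85 (limma, adjusted p = 0.101). It passed in 3 of the alternative fits, as when the second wt sham array was left out (limma, adjusted p = 0.0431).

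Ppbp differed by 0.55 (95% interval 0.20 to 0.91) and Cxcl2 by 0.48 (0.18 to 0.79) on the log2 scale, with limma's adjusted p at 0.192 and 0.184. Cxcl1 differed by 0.23 (0.02 to 0.45) and Cxcl3 by 0.37 (-0.22 to 0.96). Only the Cxcl3 arrays overlapped between the genotypes. Upward non-overlap, found for 4 of 5 ligands, was found for 7.94% of all genes.

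The response to paraquat, as a fold, was smaller in KO than in wt cells for 3 of the 5 ligands by the test of the difference itself. That test passed for 2.29% of all genes, 0.897% in the direction of a smaller value in KO. Cxcl3 had a difference of -2.19 ± 0.39 on the log2 scale (limma, adjusted p = 0.0114), which placed it 22177th of 22180 genes. Cxcl5 differed by -0.83 ± 0.19 (limma, adjusted p = 0.0431) and Cxcl1 by -0.60 ± 0.14 (limma, adjusted p = 0.0438). Cxcl2 had a difference of -0.28 with a 95% interval from -0.71 to 0.16, and Ppbp one of 0.53 with an interval from 0.03 to 1.03 (limma, adjusted p = 0.292), so neither was called. The median over the ligands was -0.60, against 0.00066 over all genes.

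The Cxcl3 call held in every alternative fit tried, over adjusted p from 0.00503 to 0.0366 in limma, although its size fell to -1.59 with 16 added and to -1.64 without the arrays that stood apart. The calls for Cxcl1 and Cxcl5 were near the threshold. Cxcl1 passed in 12 of 22 fits and was lost without the arrays that stood apart (limma, adjusted p = 0.118). Cxcl5 passed in 8 of 22 and kept its call without those arrays (limma, adjusted p = 0.0358). Leaving out each of the 12 arrays in turn ended the Cxcl1 call in 9 cases (limma, adjusted p from 0.0376 to 0.106, log2 difference from -0.67 to -0.52) and the Cxcl5 call in 10 (limma, adjusted p from 0.0134 to 0.111, log2 difference from -0.98 to -0.74).

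The smaller KO response of Cxcl3 and Cxcl5 was seen on the log2 scale and not in signal units, while that of Cxcl1 was seen on both. In signal units, not tested and computed after the data were seen, paraquat added 418 ± 28.9 (SE) to Cxcl3 in wt cells and 445 ± 95.8 in KO cells. For Cxcl5 it added 290.3 ± 11.2 in wt and 383 ± 42.5 in KO cells. Thus Cxcl3 gained a similar signal in both genotypes (difference 26.7 ± 100.0, SE) and Cxcl5 gained more in KO cells (93.0 ± 44.0). Both started from a higher sham level in KO cells. Cxcl1 gained 1120 ± 98.0 in wt and 920.3 ± 69.8 in KO cells, less in KO on either scale. Cxcl2 gained 244 ± 19.5 and 306 ± 19.7, and Ppbp 65.3 ± 5.93 and 109.7 ± 23.1.

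Each ligand had the same order of group means, from wt sham through KO sham and wt paraquat to KO paraquat. The first step of Ppbp (24.0 against 24.3) and the last step of all 5 ligands did not pass the threshold. KO sham lay below wt paraquat without overlap in 5 of 5 genes, a comparison that mixes genotype with treatment. The share of all genes with this order or this gap was not computed. The neighbours that overlapped were KO sham and wt sham for Ppbp and the 2 paraquat groups for Cxcl3. Averaged over the 5 genes, the log2 signal ran from 5.99 to 6.29 in wt sham, 7.04 to 7.41 in KO sham, 8.53 to 8.63 in wt paraquat and 8.89 to 9.24 in KO paraquat arrays.

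Among all genes, the patterns most like each ligand were found by the root mean square difference of centred log2 signals over the 12 arrays, among 17280 genes. This is a description, and all points share the same arrays. Nearest to Cxcl1 were Hcar2 (0.128), which encodes a receptor for hydroxybutyrate and niacin, Dhcr7 (0.137), the last enzyme of cholesterol synthesis, and Spon2 (0.140). Nearest to Cxcl2 were Nqo1 (0.178), a quinone reductase induced through NRF2, Ms4a10 (0.182) and Tnip3 (0.211), with Cxcl1 the 4th at 0.230. Seen from Cxcl1, Cxcl2 was the 30th.

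Cxcl3 had no near match, its first being Csta3 (0.440), a member of the stefin family of protease inhibitors, then the cytokine gene Il24 (0.596) and Cxcl5 (0.651). For Cxcl5 the nearest were Tarm1 (0.341), the histone gene H4c9 (0.346) and Il24 (0.354). Csta3 read 31.7, 240.3, 504 and 696 as means of wt sham, KO sham, wt paraquat and KO paraquat arrays, the same order as Cxcl3. Ppbp lay nearest to Odc1 (0.222), the first enzyme of polyamine synthesis, Cd14 (0.230), a co-receptor for lipopolysaccharide, and Ereg (0.265), an EGF receptor ligand. Like Ppbp, those 3 were not called between KO and wt sham arrays, at 0.05, 0.09 and -0.25 on the log2 scale (limma, adjusted p = 0.876, 0.763 and 0.347). These genes and Csta3 were picked for likeness over the same arrays, so shared orders or flat contrasts are no separate evidence.

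**Figure D3:**
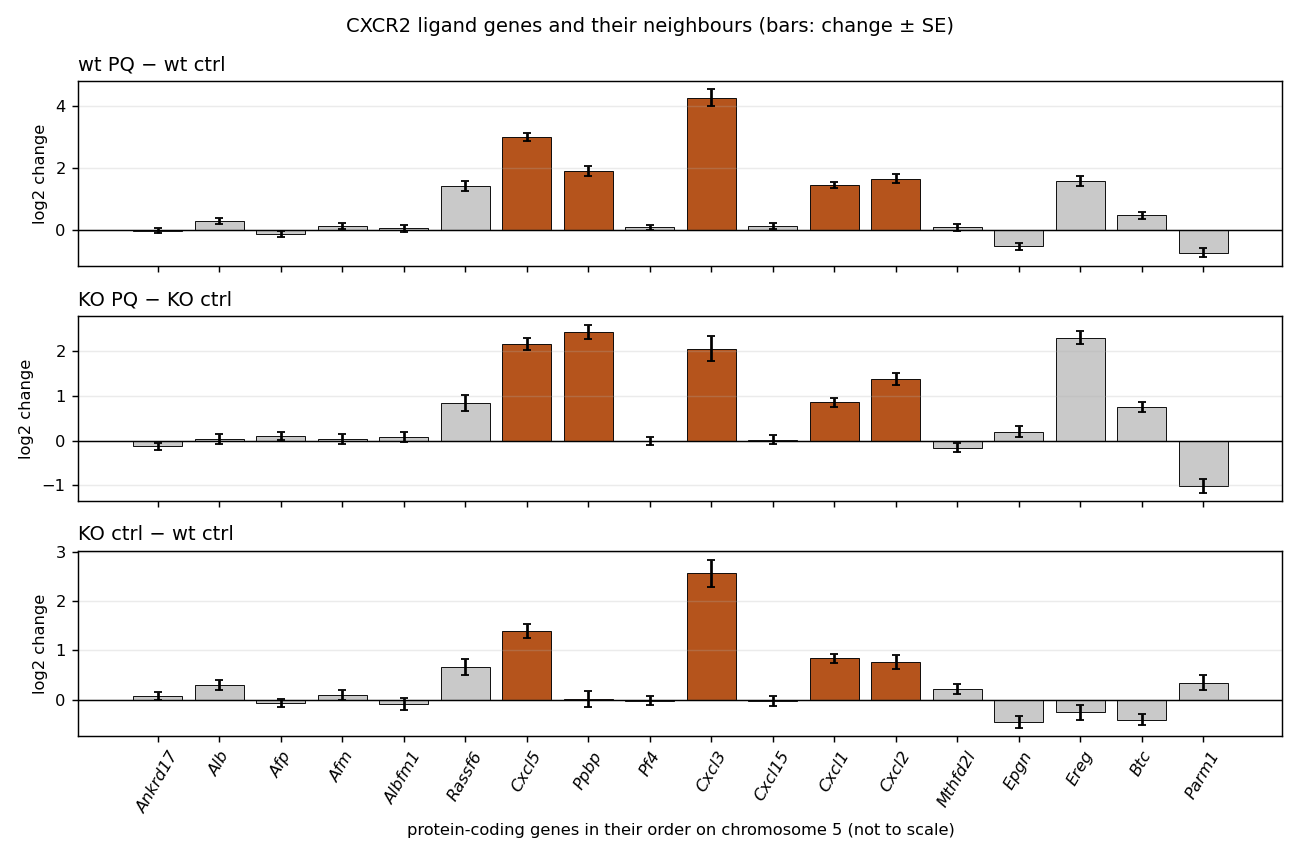
Log2 change ± SE of the ligand genes (brown) and of their measured neighbours (grey), in their order on mouse chromosome 5, not to scale. The 5 ligand genes rise under paraquat in both genotypes, while Pf4 and Cxcl15, which lie between them, stay near 0 and Rassf6 and Ereg on the flanks also rise.

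The ligand genes are clustered on mouse chromosome 5 in the order Cxcl5, Ppbp, Pf4, Cxcl3, Cxcl15, Cxcl1 and Cxcl2 in the RefSeq table. Rises in the ligand genes were interrupted by genes that did not pass. Pf4, a platelet chemokine gene that lies between Ppbp and Cxcl3, had a log2 change of 0.07 in wt and -0.00 in KO cells under paraquat. Cxcl15, a chemokine gene known from lung that lies between Cxcl3 and Cxcl1, had changes of 0.12 and 0.02. Signals of these 2 genes stayed between 17 and 22 in all 12 arrays, below the array median.

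Of 10 measured non-chemokine genes beside the cluster, 3 rose and 2 fell in wt cells under paraquat, with a median of 0.10. Of all genes, 29.2% were called in wt cells, 14.9% upward, and 27.1% in KO cells, 14.5% upward. Between the sham groups 10.2% were called, 4.58% upward, and the counts of this and later lists were not tested against these shares. Ereg rose by 1.57 and Rassf6, which lies next to Cxcl5, by 1.40 on the log2 scale (limma, adjusted p = 2.71e-06 and 2.83e-05), while Parm1 and Epgn fell. In KO cells 3 rose and 1 fell, led by Ereg at 2.29. Between KO and wt sham arrays, Rassf6 was higher by 0.66, and Epgn and Btc were lower, at -0.45 and -0.40 (limma, adjusted p from 0.0261 to 0.0307). Without the arrays that stood apart none of these 3 was called (limma, adjusted p from 0.0818 to 0.121), and Rassf6 was at 0.43. Mthfd2l, the gene next to Cxcl2, did not pass in any of these 3 comparisons, at 0.07, -0.16 and 0.21.

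**Figure D4:**
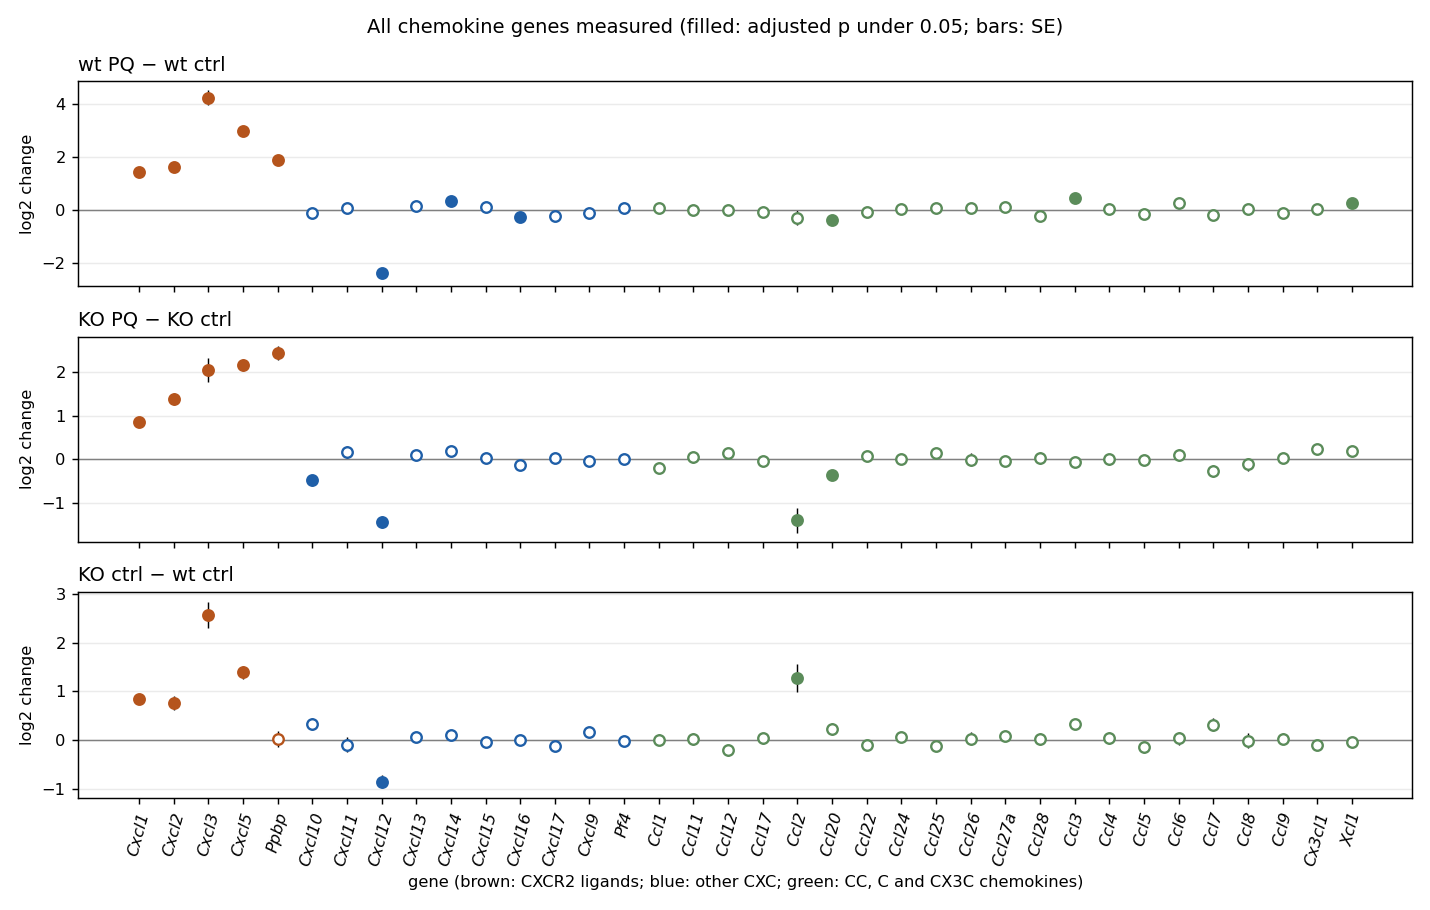
Log2 change of all measured chemokine genes in 3 comparisons, with SE bars (some smaller than the points); filled points have an adjusted p under 0.05. The 5 CXCR2 ligands (brown) are highest under paraquat, Cxcl12 is lowest in wt cells, and Ccl2 is higher in KO sham and falls under paraquat in KO cells.

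Calls among chemokine genes outside the CXCR2 ligands went in both directions in wt cells, at counts near or below the share of all genes. Of 10 other CXC genes, 1 rose and 2 fell in wt cells under paraquat (median -0.01), 3 calls in 10 beside 29.2% of all genes. In KO cells 2 of them fell, beside 27.1% of all genes called. Cxcl12, whose product binds CXCR4, fell by 2.38 on the log2 scale in wt cells (limma, adjusted p = 3.35e-08) and by 1.43 in KO cells, and was lower in KO than in wt sham arrays, at -0.85 (limma, adjusted p = 0.00157). Its direction was opposite to that of Cxcl1, Cxcl2, Cxcl3 and Cxcl5 in these 3 comparisons. Of 21 CC, C and CX3C genes, 2 rose and 1 fell in wt cells (median 0.04) and 2 fell in KO cells, beside 29.2% and 27.1% of all genes called. Ccl2, which encodes a monocyte attractant, was higher by 1.27 in KO sham arrays (limma, adjusted p = 0.012) and fell by 1.39 under paraquat in KO cells (limma, adjusted p = 0.00217). Its wt sham arrays were widely spread, at 366 ± 193 (SD, n = 3). Without the arrays that stood apart, Ccl2 was higher by 0.88 in KO sham arrays (limma, adjusted p = 0.0272). It was thus higher in KO sham arrays, as 4 of the ligands were, and fell where they rose.

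The receptor genes of the ligands had signals little above the array medians. Cxcr2 read between 47 and 81 and Cxcr1 between 45 and 59 over all 12 arrays, and Ackr1, a scavenger of these chemokines, lay below the medians, between 18 and 22. Cxcr2 changed by 0.29 ± 0.15 in wt (limma, adjusted p = 0.19) and by 0.29 ± 0.15 in KO cells (limma, adjusted p = 0.183). Of 11 chemokine receptor genes, 2 rose in wt cells under paraquat (median 0.09), Ackr3 by 0.47 and Ccrl2 by 0.38, beside 14.9% of all genes. In KO cells 0 were called (limma, the nearest being Cxcr2, with 0 at an unadjusted p under 0.05), beside 27.1% of all genes. Ackr3, which scavenges CXCL12, was also higher by 0.45 in KO sham arrays (limma, adjusted p = 0.0132, or 0.0534 without the arrays that stood apart).

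Among 26 genes of the cytokines known to induce the ligands and their receptors, 6 rose and 5 fell in wt cells under paraquat (median 0.08), and 6 rose and 8 fell in KO cells (median -0.04). The shares over all genes were 29.2% called in wt cells, 14.9% upward, and 27.1% in KO cells, 14.5% upward. The interleukin-36 genes and Il1a, which act through MyD88, rose in both. Il1f9 (interleukin-36 gamma) went from a mean of 199 to 1820 in wt cells, a log2 change of 3.20, and rose by 2.06 in KO cells. Il1f8 (interleukin-36 beta) rose by 3.42 and 3.09, Il1f6 (interleukin-36 alpha) by 2.71 and 2.06, and Il1a by 1.53 and 1.44. Tnf went the other way under paraquat, from a mean of 440 to 202 in wt cells and from 753 to 296 in KO cells. Il1f9 and Il1f8 were lower in KO than in wt paraquat arrays, at -0.75 and -0.88 (limma, adjusted p = 0.0394 and 0.0404), where each ligand had a higher value that was not called. The Il1f9 and Il1f8 calls were lost without the arrays that stood apart. Il1f9 also had a smaller response in KO cells, with a difference of -1.14 (limma, adjusted p = 0.0116) that was called with and without those arrays.

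Between KO and wt sham arrays, where 10.2% of all genes were called and 4.58% were higher, 4 of these 26 genes were higher and 1 lower. They were Tnf (0.82), Il18 (0.74) and Il1f6 (0.62) among the higher ones, and the interleukin-17 receptor gene Il17rc (-0.36) as the lower one. Without the arrays that stood apart, 1 was higher and 2 lower, with Tnf at 0.65 (limma, adjusted p = 0.0503). Il1b and Il6, 2 textbook inducers or companions of the ligands, had group means no higher than 18.7 and 8.67.

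Of 18 adaptor and kinase genes leading to NF-κB, 6 rose and 3 fell in wt cells (median 0.06), and 7 rose and 4 fell in KO cells. All genes gave 29.2% and 27.1% calls in these comparisons, and 10.2% between the sham groups. Map3k8, a kinase of the ERK arm downstream of these receptors, rose by 3.38 in wt and 2.33 in KO cells, with a difference of -1.05 (limma, adjusted p = 0.0213). Its smaller KO response went with a lower level after paraquat (-0.84, limma, adjusted p = 0.0269, or 0.0556 without the arrays that stood apart). Each ligand had a higher value in that comparison, and none was called. Myd88, the adaptor of interleukin-1 family receptors, rose by 1.21 and 0.96, and Card14, a keratinocyte scaffold protein gene, by 1.27 and 1.09. In KO sham arrays 0 were higher and 4 lower than in wt (3 lower without the arrays that stood apart, where Irak1 was lost), led by Irak3 (-0.85, limma, adjusted p = 0.000237), which restrains this pathway.

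Of 25 NF-κB, AP-1 and C/EBP transcription factor genes and their regulators, 11 rose and 7 fell in wt cells (median 0.19), and 9 rose and 3 fell in KO cells. All genes gave 29.2% and 27.1% calls, with 14.9% and 14.5% upward. Cebpa rose by 1.35 and 1.42 and Junb by 0.78 and 1.11, while Fosb fell (-2.39 and -2.40), as did Atf3 (-1.08 and -1.31). In KO sham arrays 3 were higher and 8 lower, beside 10.2% of all genes called, or 1 and 4 without the arrays that stood apart. Rel, an NF-κB subunit gene, was higher by 0.53, and Cebpb, Tnip1 and Fosl2 were lower, at -0.68, -0.42 and -0.42.

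The regulators of AU-rich mRNA decay held 8 risers and 4 fallers of 18 in wt cells (median 0.06) and 6 and 3 in KO cells. All genes gave 29.2% and 27.1% calls, with 14.9% and 14.5% upward, and 10.2% between the sham groups. Zfp36, whose product tristetraprolin promotes decay of such mRNAs, rose by 0.99 and 0.60, alongside the ligands. Dusp1, a MAP kinase phosphatase gene, rose by 1.08 and 1.00, and Zc3h12a, the gene of the RNase regnase, rose by 0.62 and 0.90. In KO sham arrays 1 was higher and 2 lower (1 and 1 without the arrays that stood apart, where Zfp36l1 was lost), with Arid5a, which protects cytokine mRNAs, at -0.85 (limma, adjusted p = 0.00423) and Zc3h12c at 0.53.

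Other epithelial genes tied to neutrophils also rose with paraquat, 8 of 18 in wt cells with 1 fall (median 0.32, or 7 and 2 without the arrays that stood apart) and 6 of 18 in KO cells with 0 falls. Over all genes, 14.9% rose in wt and 14.5% in KO cells. S100a9 rose by 2.76 and 2.09, S100a8 by 2.20 and 1.75, Hbegf by 1.93 and 1.85, and Csf3, the neutrophil growth factor gene, by 0.86 and 1.08. In KO sham arrays, where 4.58% of all genes were higher, 4 of the 18 were higher and 2 lower, among them Saa3 (0.82), Csf2 (0.85), Mmp13 (-1.50) and Mmp9 (-0.89). Without the arrays that stood apart 1 was higher and 2 lower.

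Markers of other cells were read beside the ligands. Under paraquat 29.2% of all genes were called in wt and 27.1% in KO cells, and 10.2% were called between the sham groups. Of 9 platelet and megakaryocyte markers, Pf4 included, 0 were called in wt cells under paraquat (limma, the nearest being Itga2b at 0.17, with 0 at an unadjusted p under 0.05), 1 in KO cells (Itga2b, 0.33) and 0 between the sham groups (limma, with 0 at an unadjusted p under 0.05). Their summed signal ran from 328 to 359 in wt sham, 336 to 354 in KO sham, 351 to 377 in wt paraquat and 352 to 365 in KO paraquat arrays. The sham and paraquat ranges overlapped in each genotype, with the paraquat range higher at each end. A platelet source of the Ppbp signal was not tested.

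Under paraquat 14.9% of all genes rose in wt and 14.5% in KO cells, and 10.2% were called between the sham groups. Of 12 neutrophil and macrophage markers, 5 rose in wt cells under paraquat, 3 rose and 1 fell in KO cells, and 1 was higher and 1 lower between the sham groups. Their summed signal rose from between 937 and 995 to between 2376 and 2458 in wt cells, and from between 950 and 1059 to between 1781 and 2009 in KO cells. The brightest of them, Cd68, went from a mean of 587 to 1825 in wt cells, and Cd14 from 53.3 to 229. Itgam, an integrin gene of myeloid cells, rose by 0.41 and 0.38, and Csf1r, the receptor gene of a macrophage growth factor, by 0.35 in wt cells (limma, adjusted p = 0.0104), with 0.04 in KO cells (limma, adjusted p = 0.806). The fifth riser in wt cells was Adgre1, at 0.26 (limma, adjusted p = 0.0467), and the gene that fell in KO cells was Lyz2, at -0.42. Between the sham groups Adgre1 was higher in KO, by 0.34 (limma, adjusted p = 0.0314), and Itgam lower, at -0.33 (limma, adjusted p = 0.0229, or 0.0594 without the arrays that stood apart). Cd14, Cd68, Csf3r and Cxcr2 had group means above 45 in every group, and the other 8 lay below it in every group. Of those 8, Itgam, Csf1r and Adgre1 rose in wt cells, and Ptprc, Ly6g, Adgre1 and Lyz2 had group means no higher than 19.3. This grouping was made after the values were seen, and the leukocyte content of the cultures was not tested.

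Under paraquat 29.2% of all genes were called in wt cells, 14.9% upward, and 27.1% in KO cells, 14.5% upward. Of 8 melanocyte markers, 4 rose in wt and 4 in KO cells, with Mlana at 2.57 and 2.36, and of 6 endothelial markers 3 and 2 rose, with Kdr at 2.21 and 1.38. Fibroblast markers held 1 riser of 10 in wt and 2 in KO cells, with Pdgfra at 1.50 and 0.91 (1 in KO cells without the arrays that stood apart), and the 4 Langerhans cell and T cell markers held 0 (limma, the nearest being Cd3e, with 0 at an unadjusted p under 0.05). Keratinocyte markers fell in 6 of 11 in each genotype, with Itgb4 at -1.20 and -0.67 and Krt1 at -1.40 and -1.62. The part of these shifts in the ligand results was not tested.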

How the data were processed

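Total RNA from 12 cultures was labelled with biotin and hybridised to Affymetrix arrays. Per the submitters' processing notes, the authors used RMA and Affymetrix Expression Console (version 1.3.1.187). Values as deposited are whole-number intensities on a linear scale, read as rounded RMA signals, and their log2 was taken here. Array background and probe-level data were not used here, and precision is limited by the number of arrays. The genome build behind the probe sets is not given in the sources used here, so gene order and promoter sequences come from RefSeq (GRCm38.p6).

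Of 41345 probe sets, 23521 carried 1 symbol, 1814 several and 16010 none. A gene with several probe sets (1082 genes) was read from the one with the highest mean, leaving 22180 genes and no filter on signal. A mean per group was fitted to all 12 arrays with limma 3.58.1 in R 4.3.3, without a replicate block, and 2-sided p-values were adjusted by Benjamini-Hochberg across those 22180 genes, with a threshold of 0.05. SE and 95% intervals come from that fit. The code was checked on simulated data. Same-numbered arrays did not deviate together (r from -0.073 to 0.090 over 18 pairs), so the numbers were not taken to pair them.

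The members and lists were chosen with earlier results of these data known. Of 240 entries in 17 lists, 222 were measured, 3 of them through an older symbol. Named genes are the members, Atg7, the receptors Cxcr1, Cxcr2 and Ackr1, up to 4 genes past the threshold in each list and comparison in order of p (the 2 with the smallest p where none passed), and the 3 genes most like each member. Named beyond this rule, after their values were seen, were Pf4, Cxcl15, Mthfd2l, Il1b, Il6, Krt14, Trp63, Krt15, Csf3r, Ptprc and Ly6g, as neighbours, inducers or cell type markers. Alternatives were 16 added to each signal, a second quantile normalization, centring on medians, a filter on dim genes, other treatments of probe sets, a variance trend, array weights, only the arrays compared, the replicate block, and leaving arrays out.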

Additional observations from a re-analysis of the deposited data

Results flagged for a closer look

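For 3 ligand genes the paraquat response, as a log2 change, differed between the genotypes by limma's test of the difference (KO response minus wt response). Cxcl3 had -2.19 ± 0.39 (SE, adjusted p = 0.0114), Cxcl5 had -0.83 ± 0.19 (adjusted p = 0.0431) and Cxcl1 had -0.60 ± 0.14 (adjusted p = 0.0438). The test of the difference passed for 2.29% of all genes. Of 22 alternative fits, Cxcl1 passed in 12 and Cxcl5 in 8. All 3 genes rose under paraquat in each genotype, in 3 of 3 arrays above every sham array. Such upward non-overlap was seen for 19.2% of all genes in wt and 20% in KO cells. In signal units the differences of the increments, not tested, were 26.7 ± 100.0 for Cxcl3, 93.0 ± 44.0 for Cxcl5 and -199 ± 120.4 for Cxcl1.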

How the results depend on the processing

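The 5 ligands were called higher under paraquat in wt and in KO cells under every alternative tried, and 4 were called between the sham groups in each except the fit on only the arrays compared, which called 3. Leaving out 1 array at a time gave from 5 to 5, from 5 to 5 and from 4 to 4 calls in these comparisons. Between the paraquat groups it gave from 0 to 1, and for the difference of responses from 1 to 2, against 3 with all arrays. Cxcl1 kept its difference call without the first wt ctrl, the second KO ctrl or the second wt PQ array, and Cxcl5 without the second wt ctrl or the first KO PQ array, and each lost it without any other array. The difference count was 2 with 16 added, with a second quantile normalization, with centred medians and without both the second wt ctrl and the third KO PQ array. The paraquat groups gave 1 call (Cxcl5) with 16 added and with array weights (adjusted p = 0.0447 and 0.0497).

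With the replicate block, the counts were 5, 5, 4, 0 and 2, Cxcl5 losing its difference call (adjusted p = 0.0756).

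The log2 change of Ppbp between KO and wt sham arrays, 0.02, changed sign at -0.0093 with a second quantile normalization, -0.0022 with centred medians, and -0.041, -0.0017 and -0.030 without the third wt ctrl, the first KO ctrl and the third KO ctrl array. It was 0.091 without the second KO ctrl array, and the cause was not tested.

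Over all genes, 2273 were called between the sham groups (976 with only the arrays compared, 1360 without both arrays), 122 between the paraquat groups (3 and 44, and 222 to 249 with the filter, the trend, 16 added or array weights) and 508 for the difference (268 without both, and 783 to 894 with the trend, 16 added or the filter). Dim signals limit the fold of Cxcl3, Cxcl5 and Ppbp in wt sham arrays, and of Ppbp in KO sham arrays.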
